A study of Mus musculus with 4 samples.

Results

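Immediate early genes are the first genes that a cell transcribes when a growth factor, cytokine or stress reaches it, because their transcription needs no newly made protein. The 10 examined here were Fos, Fosb, Jun, Junb, Egr1, Egr2, Ier2, Ier3, Dusp1 and Atf3. They were chosen by name, with earlier results of these data known, so counts over them are no independent evidence. The platform annotation maps 1 probe set to each of these symbols, so they made up 10 of the 19938 genes on the arrays. No probe set of theirs was shared with another symbol.

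Their levels were measured in mouse haematopoietic colonies on 4 Affymetrix gene arrays, 1 for each of 4 groups. The groups were colonies from long-term stem cells transduced with CreER (LT-HSC CreER), from short-term stem cells transduced with CreER (ST-HSC CreER), and from the same populations after mock transduction (LT-HSC mock and ST-HSC mock). All cells were of C57BL/6 background, and all colonies grew in methylcellulose with serum, stem cell factor, IL-3, IL-6 and GM-CSF. CreER is a Cre recombinase that acts only once a ligand binds its oestrogen receptor part. The series title names conditional MLL-ENL expression, but the labels give neither the MLL-ENL allele of each group nor any treatment with the ligand. A CreER minus mock difference is therefore one between transductions, not one between cells with and without MLL-ENL. Nothing in the labels says how many animals or colonies made up an array.

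The arrays carried RNA of colony cells, per the labels. Of the 14 neutrophil markers listed, all were above the signal floor on each array. The floor is the median of the probe sets with 1 symbol on that array, and it lay between 8.07 and 8.13 on the log2 scale. All 8 measured lymphoid markers were under it on all 4 arrays. Of the 7 measured stem cell genes, Slamf1, Flt3 and Mecom were under it on all 4 arrays, Kit and Procr were above it on all 4, Cd34 on 3 and Hlf on 2. Kit, which mast cells also express, lay between 10.20 and 10.67.

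The immediate early response starts at kinase cascades, chiefly the MAP kinases ERK, JNK and p38, that act on transcription factors already bound at these genes. SRF with its ternary complex factors binds the CArG box, and CREB and ATF proteins bind the cAMP response element. Fos and Jun proteins pair through leucine zippers into the factor AP-1, and EGR proteins are zinc finger factors. Dusp1 encodes a phosphatase that turns the MAP kinases off again. In blood, stem cell factor and IL-3 are among the signals that induce these genes in myeloid cells, and mast cells induce them strongly when their IgE receptor is engaged.

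Promoter windows were searched for these elements. RefSeq windows of build GRCm38.p6, from 250 bases before to 50 bases after a transcription start, were matched by symbol for 8 of the 10 genes. The 4 printed here are those of Fosb and Dusp1, whose differences between colony types are among the largest below, of Egr2, which was high on a single array, and of Fos, the close relative of Fosb that differed least. They run 5′ to 3′ along the gene, and capitals mark the matches to the motifs searched.
Fosb (chr7:19309996-19310295, minus strand): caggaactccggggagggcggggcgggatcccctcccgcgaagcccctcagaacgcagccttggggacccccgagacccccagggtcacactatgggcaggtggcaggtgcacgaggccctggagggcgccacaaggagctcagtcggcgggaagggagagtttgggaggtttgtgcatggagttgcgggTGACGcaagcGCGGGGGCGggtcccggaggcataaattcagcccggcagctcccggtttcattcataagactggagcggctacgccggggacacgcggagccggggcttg
Dusp1 (chr17:26508423-26508722, minus strand): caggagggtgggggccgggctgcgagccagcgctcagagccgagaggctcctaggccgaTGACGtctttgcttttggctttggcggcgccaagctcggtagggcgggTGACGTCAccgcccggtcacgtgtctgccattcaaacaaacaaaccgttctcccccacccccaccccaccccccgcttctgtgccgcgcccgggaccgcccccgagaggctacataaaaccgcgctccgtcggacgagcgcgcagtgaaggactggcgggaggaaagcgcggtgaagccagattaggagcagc
Egr2 (chr10:67537619-67537918, plus strand): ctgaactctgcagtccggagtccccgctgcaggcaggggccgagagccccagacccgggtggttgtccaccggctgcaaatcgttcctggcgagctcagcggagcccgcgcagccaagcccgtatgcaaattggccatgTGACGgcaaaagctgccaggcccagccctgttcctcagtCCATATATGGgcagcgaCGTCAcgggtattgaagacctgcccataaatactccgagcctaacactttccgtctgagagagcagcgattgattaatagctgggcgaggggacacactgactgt
Fos (chr12:85473640-85473939, plus strand): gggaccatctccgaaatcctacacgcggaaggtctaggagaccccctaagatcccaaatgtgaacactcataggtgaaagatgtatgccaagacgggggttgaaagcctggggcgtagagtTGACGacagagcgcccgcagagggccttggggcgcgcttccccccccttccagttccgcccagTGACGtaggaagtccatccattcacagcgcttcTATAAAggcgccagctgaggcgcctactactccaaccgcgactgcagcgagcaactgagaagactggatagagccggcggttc

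The motifs were searched on both strands, and a match in a window is a description of its letters only. The Dusp1 window held the full cAMP response element TGACGTCA 143 bases before the start, a motif present in 1.79% of the 32851 mouse promoter windows. The shorter TGACG, which the full element contains, occurred in windows of 6 of the 8 genes, namely Fos, Fosb, Junb, Egr2, Dusp1 and Atf3, and in 20.8% of all windows. The CArG box was found in windows of Egr2 alone, 72 bases before the start in the window printed, and in 1.63% of all windows. No window of Egr1 or Ier2 was searched, and bases outside the windows were not searched. The search of the 10 genes left out windows on chromosome 18, where Egr1 lies. The shares over all windows were computed without that exclusion. A motif not found may therefore still lie further from the start. Egr2 has 5 windows, some overlapping, and the one printed holds the most matches with the lowest start. The EGR motif, searched as GCGTGGGCG or GCGGGGGCG, occurred in the Fosb window 50 bases before the start and in 3.47% of all windows. TATAAA lay in the windows of Fos, 33 bases before the start, and of Junb, and in 13.6% of all windows. No window of the 8 genes held the AP-1 sites TGACTCA or TGAGTCA, which 5.2% of all windows hold. The windows of Jun and Ier3 held none of these motifs.

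All 10 genes were above the signal floor on all 4 arrays. With 1 array per group there is no spread between replicates, so each value below stands alone and each difference between 2 arrays has no test. In most of these genes the levels were ordered by the stem cell of origin. In 8 of the 10, both LT-HSC arrays stood above both ST-HSC arrays, an order found for 24.6% of the 10411 genes above the floor on at least 1 array. In Egr2 and Jun the lower LT-HSC array exceeded the higher ST-HSC array by only 0.07 and 0.14. Fos and Atf3 were the exceptions to this order. No gene of the 10 showed the opposite order, which 30.2% of all genes did.

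**Figure D1:**
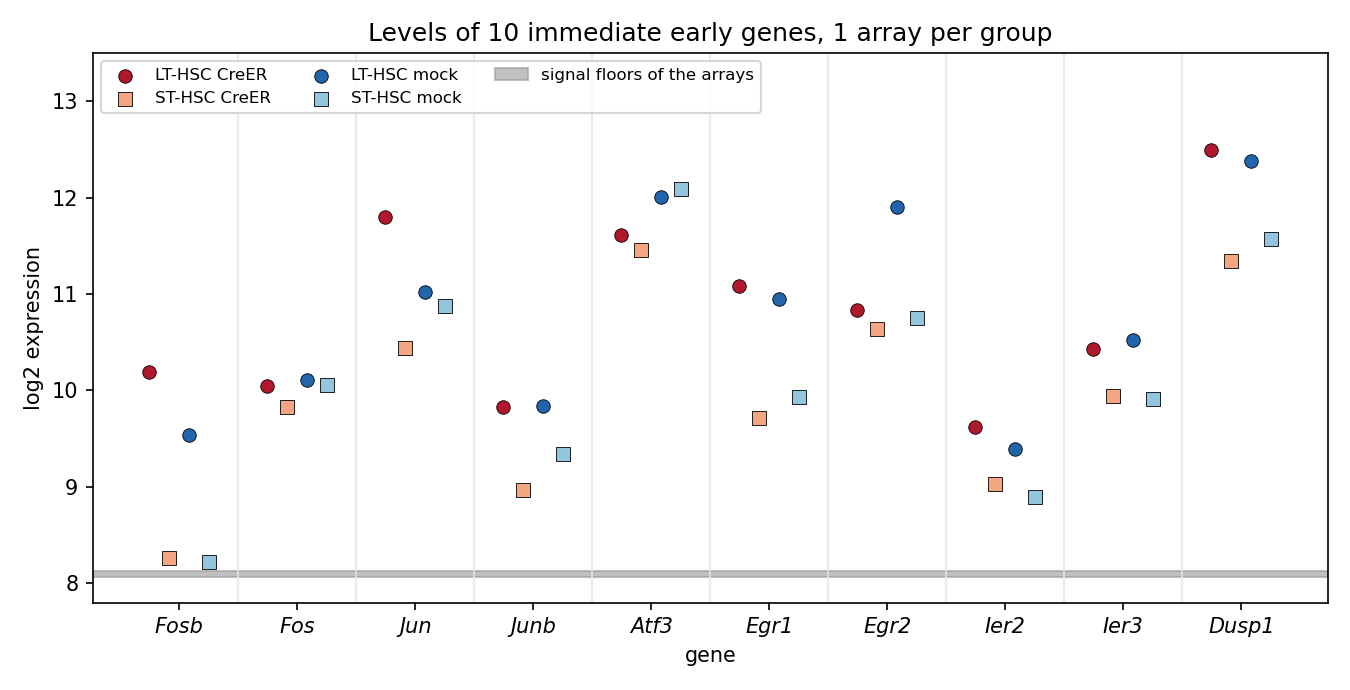
Log2 expression of the 10 immediate early genes (x axis) on the 4 arrays (y axis), 1 point per array, with LT-HSC arrays as circles and ST-HSC arrays as squares. For Fosb the circles lie at 10.19 and 9.54 and the squares at 8.26 and 8.22, just above the grey band of the arrays' signal floors, whereas the 4 points of Fos lie within 0.29 of each other.

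Among the AP-1 genes, Fosb had the widest range, 1.97 log2 units. Its level was 10.19 on LT-HSC CreER and 9.54 on LT-HSC mock, against 8.26 on ST-HSC CreER and 8.22 on ST-HSC mock. Both LT-HSC arrays were far above both ST-HSC arrays, which stood barely over the floor, so the size of its differences is uncertain. Fosb encodes a Fos family protein that, like Fos, needs a Jun partner to bind DNA.

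Fos itself, the founding member of that family, was nearly level. It stood at 10.05 on LT-HSC CreER and 10.11 on LT-HSC mock, against 9.83 on ST-HSC CreER and 10.05 on ST-HSC mock. Its range of 0.29 was the smallest of the 10, and the LT-HSC and ST-HSC arrays overlapped.

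Jun, which encodes the main activating partner of Fos proteins, was highest on a single array. Its level was 11.80 on LT-HSC CreER and 11.02 on LT-HSC mock, against 10.44 on ST-HSC CreER and 10.88 on ST-HSC mock. The mock arrays were close to each other, and the CreER arrays were the highest and the lowest of the 4.

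Junb, a Jun family member that can restrain Jun in AP-1 dimers, stood at 9.83 on both LT-HSC CreER and LT-HSC mock. It was at 8.97 on ST-HSC CreER and 9.34 on ST-HSC mock. The LT-HSC arrays were level, and ST-HSC CreER was the lowest.

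Atf3, a stress-induced leucine zipper factor that often represses, was ordered by transduction. Its level was 11.62 on LT-HSC CreER and 11.45 on ST-HSC CreER, against 12.01 on LT-HSC mock and 12.09 on ST-HSC mock. Both CreER arrays were below both mock arrays. Fos had this order too, with LT-HSC CreER and ST-HSC mock both at 10.05, and 15.7% of all genes shared it.

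The EGR genes differed from each other. Egr1, a zinc finger factor induced by ERK signalling in many cell types, was at 11.08 on LT-HSC CreER and 10.95 on LT-HSC mock, against 9.71 on ST-HSC CreER and 9.93 on ST-HSC mock. The gap between the lower LT-HSC array and the higher ST-HSC array was 1.02. Egr2, a relative with roles in myeloid and lymphoid differentiation, was high on 1 array only. It stood at 10.83 on LT-HSC CreER and 11.90 on LT-HSC mock, against 10.64 on ST-HSC CreER and 10.76 on ST-HSC mock, and its high array was LT-HSC mock.

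The remaining genes encode regulators outside the AP-1 and EGR families. Dusp1 was at 12.50 on LT-HSC CreER and 12.38 on LT-HSC mock, against 11.35 on ST-HSC CreER and 11.57 on ST-HSC mock. Ier2, a small nuclear protein gene, was at 9.62 on LT-HSC CreER and 9.39 on LT-HSC mock, against 9.03 on ST-HSC CreER and 8.90 on ST-HSC mock. Ier3, a stress-inducible gene known to modulate cell survival and ERK signalling, was at 10.44 on LT-HSC CreER and 10.53 on LT-HSC mock, against 9.94 on ST-HSC CreER and 9.92 on ST-HSC mock. In all 3, the LT-HSC arrays stood clear of the ST-HSC arrays, and the transductions lay close together.

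The first question of the design that bears on these genes was how LT-HSC-derived colonies differ from ST-HSC-derived ones. After CreER transduction all 10 genes were higher in LT-HSC-derived cells, with a median log2 difference of 0.73 and a range of 0.16 to 1.93. Over all 10189 genes above the floor on the higher array of this pair, 46.1% were above 0 and the median was -0.02. Fosb was 3.81-fold higher, the 29th largest difference of the 10189. Egr1 was 2.58-fold, Jun 2.56-fold and Dusp1 2.22-fold higher. These 4 met the size rule, at least 2-fold with a level above the floor on the higher array, which 1.39% of genes met in this direction. Below it lay Junb at 0.87, Ier2 at 0.59, Ier3 at 0.49, Fos at 0.22, Egr2 at 0.19 and Atf3 at 0.16.

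After mock transduction 9 of the 10 were higher in LT-HSC-derived cells, with a median of 0.55. Of all 10208 genes above the floor in this pair, 45.1% were above 0, with a median of -0.03. Fosb was 2.49-fold, Egr2 2.22-fold and Egr1 2.02-fold higher, and 2.72% of genes met the size rule in this direction. Egr1 only just met it, and was at 0.98 with each array centred on its median over genes. Dusp1 was higher by 0.80, Ier3 by 0.61, Junb by 0.50 and Ier2 by 0.49, whereas Jun differed by 0.14, Fos by 0.06 and Atf3 by -0.08. This pair shares no array with the CreER pair, and Fosb and Egr1 were the genes at least 2-fold higher in both.

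**Figure D2:**
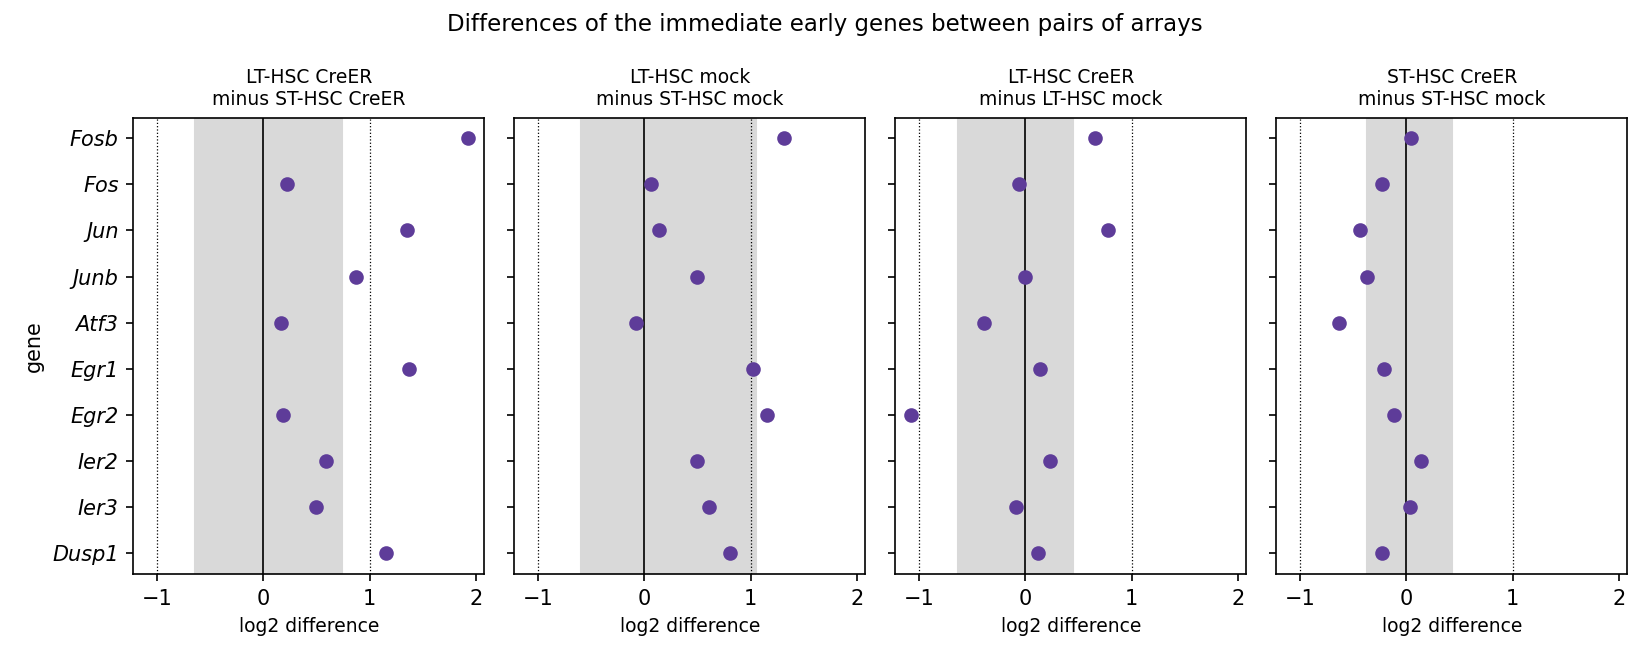
Log2 differences of the 10 genes (y axis) in the 4 pairs of arrays (panels), with the central 95% of all genes above the floor in grey and dotted lines at 2-fold. In the CreER pair of LT-HSC against ST-HSC, Fosb, Jun, Junb, Egr1 and Dusp1 lie to the right of the grey band, and in the LT-HSC pair of CreER against mock Egr2 lies far to its left at -1.07.

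An additive fit with terms for origin and transduction used all 4 arrays and 10411 genes with limma. It leaves 1 residual degree of freedom per gene, and no label says that the arrays are separate cultures or animals. Its p-values therefore set an effect against the departure of these 4 arrays from additivity and against limma's prior, and not against biological replicates. For origin, 6 of the 10 genes had an adjusted p (Benjamini-Hochberg) under 0.05, all higher in LT-HSC-derived cells, where 6.27% of all genes passed in either direction. Fosb was higher by 1.62 ± 0.16 (SE) and Egr1 by 1.19 ± 0.12, each with an adjusted p from limma of 0.0112. Dusp1 was higher by 0.98 ± 0.12, with an adjusted p of 0.0179 in the limma fit.

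The other genes that passed did so narrowly. Junb was higher by 0.68 ± 0.12, Ier3 by 0.55 ± 0.10 and Ier2 by 0.54 ± 0.09, with adjusted p from limma of 0.0437, 0.0403 and 0.0407. Under other normalizations, filters or probe set rules Junb ranged up to an adjusted p of 0.0621, Ier3 up to 0.0605 and Ier2 up to 0.0533, so these calls are not kept in every setting. Jun and Egr2, with 1 outstanding array each, had effects of 0.75 ± 0.28 and 0.67 ± 0.23 and limma adjusted p of 0.178 and 0.152. Fos (0.14 ± 0.10) and Atf3 (0.04 ± 0.11) had limma adjusted p of 0.426 and 0.851.

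**Figure D3:**
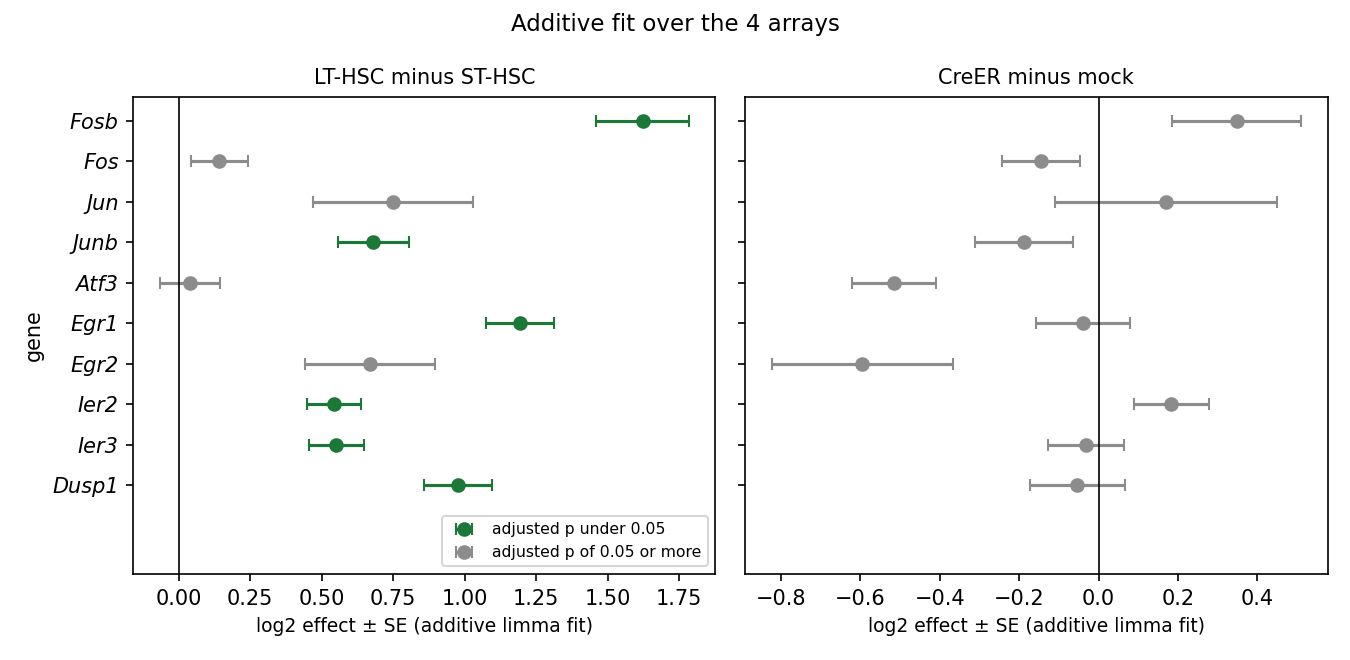
Effects of origin (left) and of transduction (right) on the 10 genes in the additive limma fit, as log2 effect (x axis) with bars of 1 SE; green marks an adjusted p under 0.05. Green points are those of Fosb, Junb, Egr1, Ier2, Ier3 and Dusp1 for origin, and no gene is green for transduction.

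The second question was how CreER-transduced cells differ from mock-transduced ones within each population. In LT-HSC-derived cells the 10 genes went both ways, 5 above and 5 below 0, with a median of 0.06. Of all 10172 genes above the floor, 44.4% were higher with CreER, and their median was -0.03. Egr2 was 2.11-fold lower with CreER, and 0.767% of genes were at least 2-fold lower. Jun was 1.71-fold and Fosb 1.57-fold higher, the 31st and 74th largest differences of the 10172, and both were short of 2-fold. Atf3 differed by -0.39 and Ier2 by 0.23, and the other 5 differed by less than 0.2 either way. The LT-HSC mock array, which carries the high Egr2 value, also enters the mock pair of LT-HSC against ST-HSC above.

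In ST-HSC-derived cells 7 of the 10 were below 0 with CreER, with a median of -0.22 against -0.03 over all 10047 genes above the floor, of which 42.6% were above 0. None met the size rule, as 0.518% of genes did in either direction. Atf3 was 1.56-fold lower, the 37th largest difference downwards of the 10047. Jun differed by -0.44, Junb by -0.37, Fos and Dusp1 by -0.23 each, Egr1 by -0.21 and Egr2 by -0.12. Ier2, Fosb and Ier3 were above 0, by 0.13, 0.04 and 0.03.

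Over both populations, no gene of the 10 passed the limma test for CreER against mock, and 0 of the 10411 genes did, with 1048 at an unadjusted p under 0.05. Atf3 had the largest effect relative to its error, -0.51 ± 0.11 with an adjusted p from limma of 0.321, and was lower with CreER in both populations. Egr2 had an effect of -0.59 ± 0.23, with a limma adjusted p of 0.483. These 2 were the genes of the list with an unadjusted p under 0.05 (0.0041 and 0.0457 in limma), as 10.1% of all genes had.

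The signed CreER minus mock difference was further up the scale in LT-HSC-derived than in ST-HSC-derived cells for 8 of the 10 genes, as for 48.9% of all genes. In size, regardless of sign, it was larger in LT-HSC-derived cells for 5 of the 10 and for 61% of all genes. The difference of the differences was 1.21 for Jun, 0.61 for Fosb, 0.37 for Junb, 0.35 for Egr1 and Dusp1, and -0.96 for Egr2. Jun alone passed 1 log2 unit, as 1.36% of all genes did. It has no test, since 4 groups with 1 array each leave no degree of freedom for it.

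Profiles over the 4 arrays, each centred on its own mean, were compared by Euclidean distance in log2 units. Among the 45 pairs of the 10 genes, Egr1 and Dusp1 were closest at 0.22, followed by Ier2 and Ier3 at 0.24. Fosb and Atf3 were farthest apart at 1.81, and Fosb and Fos, of 1 gene family, came next at 1.58. For the 5 genes with a range of at least 1, the 3 nearest of the other named genes above the floor were sought. Nearest to Egr1 were Cd69 (0.16), a surface protein that activated leukocytes induce early, the endothelial and stem cell receptor gene Eng (0.18) and the small nucleolar RNA gene Snora75 (0.19). Nearest to Dusp1 were Tfr2 (0.12), a transferrin receptor gene, Snora75 (0.13) and Eng (0.14). Fosb had Slc14a1 (0.21), Tmem176b (0.24) and the interleukin gene Il1b (0.31). Jun had the interleukin-1 family gene Il1f6 (0.16), Snora31 (0.30) and Zfpm1 (0.31), which encodes a cofactor of GATA factors. Egr2 had the T cell costimulatory receptor gene Cd28 (0.16), Frg2f1 (0.16) and the growth factor gene Igf1 (0.18). Some of these neighbours were above the floor on few arrays: Il1f6, Frg2f1 and Tfr2 on 1, Slc14a1 and Tmem176b on 2 (both LT-HSC arrays) and Zfpm1 on 3, so their distances rest partly on background values. The others named were above it on all 4. All distances rest on 4 arrays and are descriptions only.

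Other immediate early genes leaned towards LT-HSC-derived cells as well. Of the 37 listed, 33 passed the floor, and 27 of them were above 0 after CreER and 28 after mock transduction, with medians of 0.22 and 0.38. Of all genes above the floor on the higher array, 46.1% and 45.1% were above 0. In the limma fit 9 of the 33 were higher in LT-HSC-derived cells at an adjusted p under 0.05 and 0 were lower. Of all 10411 genes, 394 were higher and 259 lower at that threshold. Ptgs2, the inducible cyclooxygenase gene, was higher by 2.70 ± 0.23 with a limma adjusted p of 0.00761. Plk2, a stress-induced kinase gene, was higher by 1.52 ± 0.09, the G protein regulator gene Rgs1 by 1.14 ± 0.14 and the pseudokinase gene Trib1 by 1.12 ± 0.09. Nfil3, Phlda1, Rgs2, Plk3 and Myc also passed, with effects from 0.58 to 1.05. By contrast Nr4a1, an immediate early nuclear receptor gene, had an effect of -0.31 ± 0.13 and Klf10 one of -0.28 ± 0.10, with limma adjusted p of 0.196 and 0.156.

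Other genes whose proteins pair within AP-1 or its relatives lay near 0 in the median. Of 18 such genes listed, 16 passed the floor in each comparison of LT-HSC with ST-HSC, with medians of 0.02 after CreER and 0.19 after mock transduction. None was 2-fold higher or lower, and 0 of 16 passed the limma test for origin, with 0.0520 as the smallest adjusted p. Among the Fos and Jun family genes, Fosl1 was at 0.46 after CreER and 0.13 after mock transduction, Fosl2 at -0.07 and 0.39, and Jund at 0.24 and 0.73.

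A list of MAP kinase phosphatases and ERK feedback genes, some of them induced by ERK, leaned towards LT-HSC-derived cells. Of the 16 measured genes of this list, 14 were above 0 after CreER and 15 after mock transduction, with medians of 0.41 and 0.48. Of those above the floor on both arrays of a pair, 9 of 11 were above 0 after CreER and 8 of 9 after mock transduction. Over all genes above the floor on the higher array, 46.1% and 45.1% were above 0. In limma 5 of 13 were higher at an adjusted p under 0.05, namely the phosphatase genes Dusp10 (0.75 ± 0.13), Dusp2 (0.68 ± 0.09) and Dusp5 (0.51 ± 0.09), and Spry1 (0.70 ± 0.12) and Spred1 (0.59 ± 0.11), inhibitors of the Ras to ERK pathway. Of all 10411 genes, 394 were higher at that threshold. Spry1 was under the floor on both ST-HSC arrays, and Dusp2 on ST-HSC mock, so the sizes of these 2 effects are uncertain, and 3 of the 5 were above the floor on all 4 arrays. For the kinases and DNA-bound factors upstream, the list medians lay near the median of all genes, with members on both sides of it. The MAP kinase list had medians of -0.06 after CreER and 0.04 after mock transduction over 9 genes, and SRF, its cofactors and the EGR corepressors had 0.04 and -0.03 over 10 genes. Creb1, which encodes a cAMP response element binding factor, was at -0.45 in both pairs, whereas Nab2, a corepressor of EGR proteins, was at 0.37 after CreER and 0.54 after mock transduction. In limma 0 of these 9 and 0 of these 10 passed for origin, at smallest adjusted p of 0.215 and 0.0565.

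Targets and partners in stress and inflammatory signalling varied. Genes of the ATF4 stress response, a pathway that can induce Atf3, had medians of 0.76 after CreER and 1.17 after mock transduction, and 7 of 10 passed the limma test for origin, among them Trib3, Chac1 and Atf4. Atf3 did not follow them, at 0.16 and -0.08. Of 16 NF-kB feedback and target genes, 14 were above 0 after CreER and 10 after mock transduction, with medians of 0.28 and 0.15. Over all genes above the floor on the higher array, 46.1% and 45.1% were above 0. In limma 5 of the 16 passed for origin, where 6.27% of all genes did. All 5 were higher in LT-HSC-derived cells, including the chemokine gene Cxcl2, Il1b and Nfkbiz, and 4 of the 5 were above the floor on all 4 arrays. Heat shock chaperone genes, which rise with Fos and Jun in handled or heated cells, had medians of 0.08 and -0.16, and 0 of 9 passed, with 0.110 as the smallest limma adjusted p. The heat shock gene Hspa1a was at 9.19 on LT-HSC CreER and 8.96 on LT-HSC mock, and at 8.87 on ST-HSC CreER and 10.42 on ST-HSC mock, the highest of the 4. The part of handling in the immediate early differences was not tested.

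**Figure D4:**
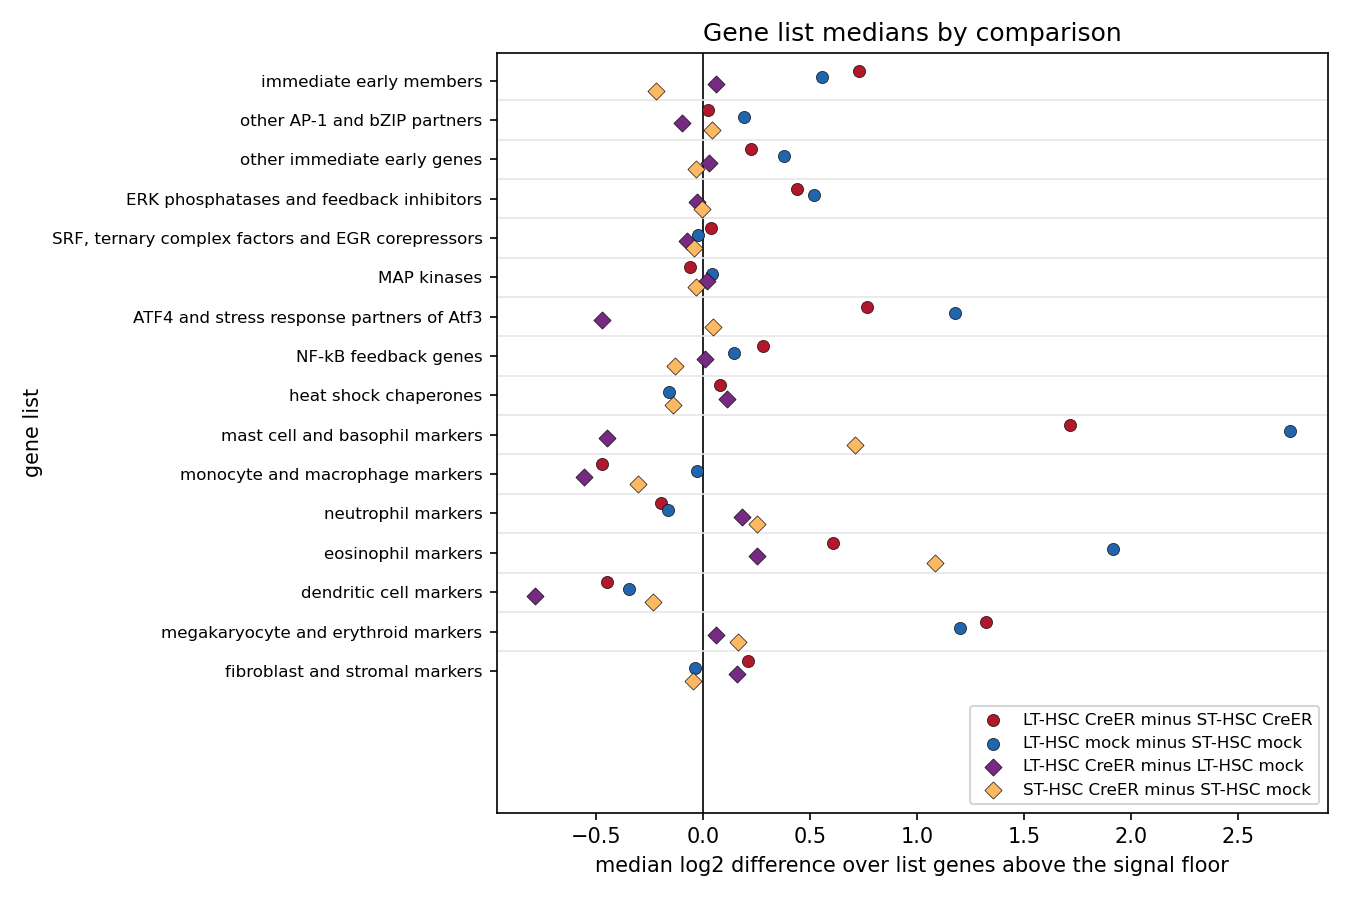
Median log2 difference (x axis) of each gene list (y axis) in the 4 pairs of arrays, over list genes whose higher value in the pair passed the floor; circles are LT-HSC minus ST-HSC and diamonds are CreER minus mock. For the 10 immediate early genes the circles lie at 0.73 and 0.55 and the diamonds at 0.06 and -0.22. The circles of the mast cell and basophil markers lie at 1.71 (CreER pair) and 2.74 (mock pair). Of the 11 markers in each, 2 and 5 passed the floor on the LT-HSC array only. Over the markers above the floor on both arrays the medians are 0.99 and 2.22.

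Markers of several cell types were higher in LT-HSC-derived cells too. Of 14 measured mast cell and basophil markers, 12 were above 0 after CreER and 13 after mock transduction, with medians of 0.88 and 2.29. Of those above the floor on both arrays of a pair, 9 of 9 were above 0 after CreER and 6 of 6 after mock transduction. Over all genes above the floor on the higher array, 46.1% and 45.1% were above 0. Cd200r3 and Il4 were under the floor on both ST-HSC arrays, and Tpsab1, Cma1 and Mcpt4 on all 4 arrays. The mean log2 level over all 14 was 9.99 on LT-HSC CreER and 10.43 on LT-HSC mock, against 8.93 on ST-HSC CreER and 8.45 on ST-HSC mock. Megakaryocyte and erythroid markers averaged 9.88 on LT-HSC CreER and 9.82 on LT-HSC mock, against 8.75 on ST-HSC CreER and 8.50 on ST-HSC mock, over 8 genes. Neutrophil markers averaged 12.98 and 12.77 on the same LT-HSC arrays, against 13.30 and 12.75 on ST-HSC CreER and ST-HSC mock. Eosinophil markers averaged 10.18 on LT-HSC CreER and 10.02 on LT-HSC mock, against 9.79 on ST-HSC CreER and 9.03 on ST-HSC mock, over 7 genes, of which Ccr3 and Il5ra were under the floor on all 4 arrays. The granule protein genes Prg2, Epx and Prg3 were higher by 0.61, 0.81 and 0.77 after CreER and by 2.12, 1.92 and 1.97 after mock transduction. The list's other genes above the floor differed less, Ear6 by -0.11 after CreER and 0.39 after mock transduction, and Siglecf by 0.21 and 0.11. In bulk RNA of this kind, more cells of a type and more RNA per cell cannot be told apart, and the part of these cell types in the immediate early differences was not tested.

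Marker levels also differed in the ST-HSC CreER minus ST-HSC mock comparison, in which 7 of the 10 immediate early genes were below 0. Of the eosinophil markers, Prg2, Epx, Prg3 and Ear6 were at least 2-fold higher with CreER, Prg2 by 1.42. Of 14 neutrophil markers 12 were above 0, with a median of 0.25, and Mmp9 (2.05), Cxcr2 (1.64) and Retnlg (1.57) were at least 2-fold higher. Of 14 mast cell and basophil markers 12 were above 0, with a median of 0.43. Only 6 of these 14 were above the floor on both arrays, and of them 5 were above 0, with a median of 0.35. Of 13 monocyte and macrophage markers 2 were above 0, with a median of -0.30, and of the 10 above the floor on both arrays 1 was, with a median of -0.22. Of all genes above the floor in this pair, 42.6% were above 0. The part of these cell types in that comparison was not tested.

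Macrophage and dendritic cell markers moved with the LT-HSC CreER minus LT-HSC mock difference, in which Egr2 was lower. Of the monocyte and macrophage markers above the floor on both of these arrays, 9 of 10 were below 0, with a median of -0.52, and of the dendritic cell markers 5 of 6 were, with a median of -0.79. Of all genes above the floor on the higher array of this pair, 44.4% were above 0. The monocyte and macrophage markers averaged 10.42 on LT-HSC CreER and 10.79 on ST-HSC CreER, against 11.02 on LT-HSC mock and 11.05 on ST-HSC mock. Between LT-HSC mock and ST-HSC mock, where Egr2 was at 11.90 and 10.76, the markers went both ways. Of the dendritic cell markers above the floor on both of those arrays, 3 were above 0 and 3 below, with a median of 0.04. Of the monocyte and macrophage markers, 5 were above 0 and 6 below, with a median of -0.03. The dendritic cell marker Itgax was at 10.61 on LT-HSC mock and 9.51 on ST-HSC mock, and the macrophage marker Ms4a7 at 9.14 and 8.09, and both were highest on LT-HSC mock, as Egr2 was. The other way went the monocyte marker Ccr2, at 10.53 on LT-HSC mock and 11.78 on ST-HSC mock, and the dendritic cell marker Irf8, at 9.78 and 10.63. Whether the macrophage and dendritic markers account for the Egr2 difference was not tested.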

How the data were processed

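RNA of colony-forming cells was measured on whole-transcript arrays with biotin labelling, per the labels. The deposited table holds log2 expression for each probe set, as its range of 2.21 to 14.82 shows. The authors used Affymetrix Expression Console, per the submitters' processing notes. The sources used here give neither its version nor how it summarised and normalized. Array medians lay between 7.75 and 7.82, so the values were used without rescaling. Such summaries compress differences near background.

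Of 35556 probe sets, 21789 had 1 gene symbol and gave 19938 genes, each by its probe set with the highest mean. The additive model was fitted with limma 3.58.1 in R 4.3.3 (lmFit, eBayes; 4.27 prior degrees of freedom), with Benjamini-Hochberg adjustment over 10411 genes, and was tested on simulated data. The alternatives were quantile, cyclic loess and median-centring normalization, no floor or a higher floor, 1.5-fold and 3-fold thresholds, the mean of all probe sets, a prior trend and an adjusted p of 0.1.

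The genes and lists were chosen with earlier results of these data known, so their counts are no independent evidence. Named were the 10 members, up to 4 genes per list and comparison with the largest differences, other immediate early and AP-1 genes meeting the size rule, and the 3 genes nearest in profile to each member with a range of at least 1. Nr4a1, Klf10, Myc, the stem cell genes and other genes past the limma threshold were named after their values were seen.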

Additional observations from a re-analysis of the deposited data

Results flagged for a closer look

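Jun, Egr1, Dusp1 and Ier3 differed between CreER and mock in opposite directions in the 2 populations, on single arrays and without a test of the difference. The CreER minus mock difference of Jun was 0.78 for LT-HSC and -0.44 for ST-HSC, 1.21 apart, and that of Egr1 was 0.14 and -0.21, 0.35 apart. Dusp1 had 0.12 and -0.23, also 0.35 apart, and Ier3 had -0.09 and 0.03, with a difference of -0.12. Atf3 differed between LT-HSC-derived and ST-HSC-derived cells by 0.16 after CreER and by -0.08 after mock transduction, 0.24 apart, which was not tested either.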

How the results depend on the processing

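For Fosb, Egr1 and Dusp1, the limma call of a higher level in LT-HSC-derived cells held in the analysis as reported and in the 7 other settings refitted, with the highest adjusted p at 0.0301, 0.0292 and 0.0391. The count of members past the threshold was 6 as reported, 4 with quantile normalization, 3 with cyclic loess and 3 with the floor at the 75th percentile, where Junb and Ier2 were not fitted. The count over all genes was 653 as reported, 368 with cyclic loess, 186 with the higher floor and 1401 at an adjusted p of 0.1. By the size rule, the LT-HSC pair of CreER against mock had 1 member, 3 at 1.5-fold and 0 at 3-fold, and the ST-HSC pair had 0 members and 1 at 1.5-fold. LT-HSC against ST-HSC had 3 members after mock transduction, 5 at 1.5-fold and 0 at 3-fold. After CreER it had 4, and 1 at 3-fold, with Junb (1.82-fold) and Ier2 (1.51-fold) added at 1.5-fold. The difference of the CreER differences had 1 member, 3 at 1.5-fold and 0 at 3-fold. The shares of all genes at 1.5-fold and 3-fold are not given here. These counts therefore describe only how the members move with the threshold. Fosb in the mock pair fell under the floor at the 75th percentile. Junb in the LT-HSC pair of CreER against mock changed sign, to 0.04, with quantile normalization. For CreER against mock, limma called 0 genes in every setting. No paired analysis was possible because no group has numbered replicates, beyond the additive fit itself, which compares CreER with mock within populations and LT-HSC with ST-HSC within transductions. Precision is limited throughout by having 4 arrays.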
